A study of Mus musculus with 48 samples.

Results

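The 5 week cerebellum of ATXN1-82Q Tg mice was compared with the cerebellum of WT mice of the same age by RNA-sequencing. These are 6 of the 48 libraries of a study of spinocerebellar ataxia type 1 (SCA1) in mice, 3 from Tg and 3 from WT animals, and they were taken as the Tg and WT columns of the deposited table for that tissue and age. All 6 libraries came from male mice on a pure FVB/NJ background at 5 weeks of age. The Tg mice carry human ATXN1 with 82 glutamines in its repeat, driven by the Pcp2 promoter in Purkinje cells, and the WT mice carry no transgene. The remaining libraries of the study cover the same model at 12 weeks, the inferior olive of both ages, and Atxn1 154Q/2Q KI mice, in which the expanded repeat lies in the endogenous Atxn1 gene on a C57BL/6J background. Libraries were made from whole dissected tissue, and the labels call the 3 libraries of a genotype biological replicates.

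Purkinje cells are the output neurons of the cerebellar cortex. They receive parallel fibres from granule cells and a climbing fibre from the inferior olive. Glutamate from parallel fibres acts on metabotropic receptors coupled through Gq to phospholipase C beta, and the resulting IP3 opens IP3 receptors that release calcium from the endoplasmic reticulum. Calcium-binding proteins, pumps and RGS proteins, which shorten G protein signals, limit the response. Ataxin-1 is a nuclear protein that binds transcriptional regulators such as Capicua (Cic), a repressor, and is known in complexes with RORalpha, which drives Purkinje cell genes.

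Each gene's level is given in FPKM, sequenced fragments scaled to transcript length and to the depth of the library. Of 26436 entries in the table, 2898 (11%) carry no gene symbol. The remaining entries hold 23004 symbols, of which 13325 averaged 0.5 FPKM or more in WT and in Tg libraries and were tested with limma on log2(FPKM + 0.1). Fold changes below are on that scale, Tg minus WT, and a gene was called at a Benjamini-Hochberg adjusted p below 0.05 over all 13325 genes. Between 12422 and 12504 symbols reached 1 FPKM in a library. Read counts were not used here, and relative depths read from the spacing of low values spanned 0.998 to 1.23 times that of the first WT library. MicroRNA and small nucleolar RNA genes took 30.1% and 32.7% of summed FPKM in Tg replicates 1 and 2 and at most 2.47% in the other 4 libraries. A share of summed FPKM is not a share of fragments. The upper quartile of FPKM above 0 was 19.1 in Tg replicates 1 and 2, 18.99 in Tg replicate 3 and 19.47 to 19.52 in WT libraries. With each library centred on its median, 515 genes were called against 554 without centring. Tg replicate 3 lay farthest out on the first principal component.

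The gene windows shown here lie 250 bases upstream of the transcription start and belong to a Purkinje cell glutamate transporter (Slc1a6), a potassium channel subunit (Kcng4) and a phosphatase gene that Capicua represses (Dusp6), 3 members of lists described below that were all lower in Tg cerebellum. Sequences are from RefSeq, build GRCm38.p6, written 5′ to 3′ on the strand of the gene, and capitals mark an E-box with the letters CAGCTG. The Dusp6 window holds no such letters.

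Slc1a6 (chr10:78780246-78780495, plus strand): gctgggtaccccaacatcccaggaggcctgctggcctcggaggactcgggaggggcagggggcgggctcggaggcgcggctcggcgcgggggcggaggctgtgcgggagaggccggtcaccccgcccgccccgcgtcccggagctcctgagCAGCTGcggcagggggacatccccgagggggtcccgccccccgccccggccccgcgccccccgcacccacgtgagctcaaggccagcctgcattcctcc

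Kcng4 (chr8:119635681-119635930, minus strand): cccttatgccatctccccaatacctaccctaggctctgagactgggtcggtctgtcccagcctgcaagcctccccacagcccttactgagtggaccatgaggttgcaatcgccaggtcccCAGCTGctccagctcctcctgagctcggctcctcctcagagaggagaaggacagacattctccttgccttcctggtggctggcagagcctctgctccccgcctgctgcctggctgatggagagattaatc

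Dusp6 (chr10:99262981-99263230, plus strand): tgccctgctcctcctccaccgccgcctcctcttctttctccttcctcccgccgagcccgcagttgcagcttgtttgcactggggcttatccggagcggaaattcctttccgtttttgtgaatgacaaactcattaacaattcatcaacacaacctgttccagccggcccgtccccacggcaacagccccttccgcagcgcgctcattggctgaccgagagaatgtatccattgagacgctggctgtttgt

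RefSeq windows were matched for 9657 tested genes. CAGCTG, which reads the same on both strands, stood in 68 of 472 windows of called lower genes (14.4%) and in 12.3% of the windows of all tested genes. The TATA motif TATAAA, searched on both strands, was in 6.36% of the lower windows and 6.47% of all. TAGGTCA, a half-site letter string for RORalpha, was found in 1.06% of lower windows against 1.51% of all. The 2 letter strings searched for Capicua were TGAATGAA, present in 0 of 472 lower windows and 0.698% of all, and TGAATGGA, present in 0.636% and 0.634%. Of the 37 windows matched to the Purkinje cell list described below, 8.11% held CAGCTG. Of the 11 windows matched to the list of genes that Capicua represses, 1 (9.09%) held TGAATGAA and 1 (9.09%) held TGAATGGA. None of these shares is a test, and a match describes letters in a window only.

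Atxn1 and Pcp2 were read first as checks of the labels. Mouse Atxn1 (chr13:45549755-45965008, GRCm38) read 10.1, 11.4 and 10.5 FPKM in WT libraries and 12.0, 12.4 and 12.6 FPKM in Tg libraries. The groups did not overlap, but the difference of 0.21 ± 0.05 (SE, n = 3 per genotype) was not called by limma (adjusted p = 0.0894). The transgene is human, so this gene is a weak check of the genotype. Pcp2 (chr8:3623371-3625545), the Purkinje cell gene whose promoter drives the transgene, read 736, 663 and 646 FPKM in WT and 394, 341 and 367 FPKM in Tg libraries. It was lower by -0.89 ± 0.07 (SE), with an adjusted p of 7.48e-05 in limma.

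At 5 weeks the called genes were mostly lower in the Tg cerebellum. limma called 554 of the 13325 genes (4.16%), of which 497 were lower (3.73%) and 57 higher (0.428%). In whole tissue, fewer cells of a type and less RNA per cell cannot be told apart. Among the lower genes the median log2 fold change was -0.42, 202 were lower by at least 0.5, and 53 fell to 50% of WT or less. Among the higher genes the median was 0.33, 13 were higher by at least 0.5, and 0 reached a doubling. The median over all tested genes was -0.00484. Every called gene had all 3 Tg libraries outside the WT range. Over all tested genes, such separation was seen below WT for 12.5% and above WT for 7.65%. Of 641 tested genes with at least 100 FPKM in WT, 62 were called lower. The count of higher genes moved more with single libraries than the count of lower genes: without Tg replicate 2 it was 27, without WT replicate 2 it was 29 and without WT replicate 3 it was 33, while the lower count stayed between 343 and 422 when any 1 library was left out.

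**Figure D1:**
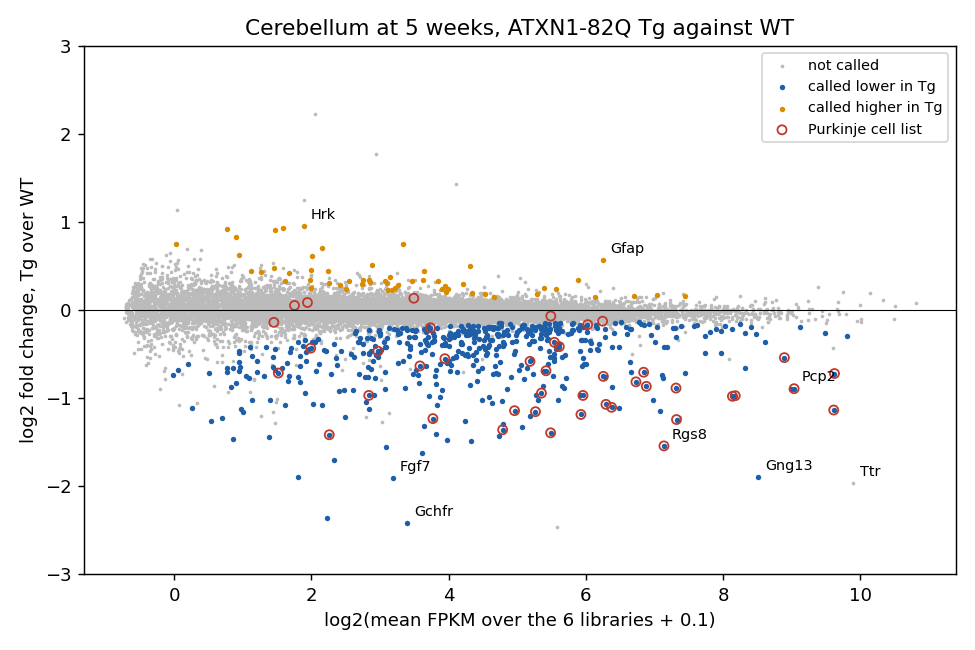
Log2 fold change, Tg over WT, against log2 of mean FPKM + 0.1 over the 6 libraries, 1 point per tested gene, with called lower genes in blue, called higher genes in orange and the 42 Purkinje cell list genes ringed in red. Blue points reach -2.42 at Gchfr, orange points reach 0.95 at Hrk, and Ttr lies at -1.97 without being called.

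Gchfr, which encodes the feedback regulator of GTP cyclohydrolase I, was the named gene with the largest decrease (chr2:119167773-119172390). It read 17.2, 18.5 and 17.1 FPKM in WT and 3.55, 2.89 and 3.21 FPKM in Tg libraries, 18.3% of the WT mean. The difference was -2.42 ± 0.08 (SE, limma adjusted p = 8.44e-07). Fgf7, a fibroblast growth factor, fell from 14.9, 14.7 and 13.3 FPKM to 3.90, 3.52 and 3.76 FPKM, a change of -1.91. Its entry lies against Galk2 in the deposited loci. Trabd2b, a membrane metalloprotease that acts on Wnt proteins, read 5.40, 5.38 and 5.34 FPKM in WT and 1.61, 1.26 and 1.26 FPKM in Tg libraries, a change of -1.90. In each of these genes the highest Tg library lay far below the lowest WT library.

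The most abundant gene among the largest decreases was Gng13 (chr17:25717171-25719406), a G protein gamma subunit. It read 591, 579 and 553 FPKM in WT and 174, 147 and 143 FPKM in Tg libraries, 26.9% of the WT mean, and the difference was -1.90 ± 0.07 (SE, limma adjusted p = 1.39e-06). Rgs8 (chr1:153653025-153700323), a Purkinje cell RGS protein, fell from 214, 216 and 199 FPKM to 75.8, 67.4 and 72.5 FPKM. Gpr63, an orphan G protein-coupled receptor, fell from 18.7, 18.7 and 17.9 FPKM to 6.08, 5.90 and 5.80 FPKM. The other named decreases were Tspan11, a tetraspanin (-1.70), Mdfi, an inhibitor of MyoD family transcription factors (-1.56), Grid2ip, a scaffold of the parallel fibre synapse (-1.49), Col18a1, the collagen XVIII chain (-1.47), Espn, an actin-bundling protein (-1.44), and Stk17b, a serine/threonine kinase (-1.43). All 12 kept their calls under every alternative processing.

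The Purkinje cell list holds 42 marker genes of these neurons, and all 42 were tested. Of these, 35 (83.3%) were called lower and 0 higher, beside 3.73% called lower over all genes. The limma fit gave an unadjusted p below 0.05 and a lower level for 37 (9.82% over all genes), and for 0 with a higher level (4.73% over all genes). The median log2 fold change of the list was -0.78 and the range -1.54 to 0.13. The list sum was 6490, 6500 and 6153 FPKM in the WT libraries and 3613, 3360 and 3537 FPKM in the Tg libraries. A gene of the list stood at a median of 58.9%, 55.3% and 58.3% of its WT mean in Tg libraries 1 to 3, against 98.6%, 102.3% and 97.9% in the WT libraries. In 12 of the 42 the Tg mean was at or below 50% of WT. The list count stayed at 34 or 35 whichever library was left out.

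**Figure D2:**
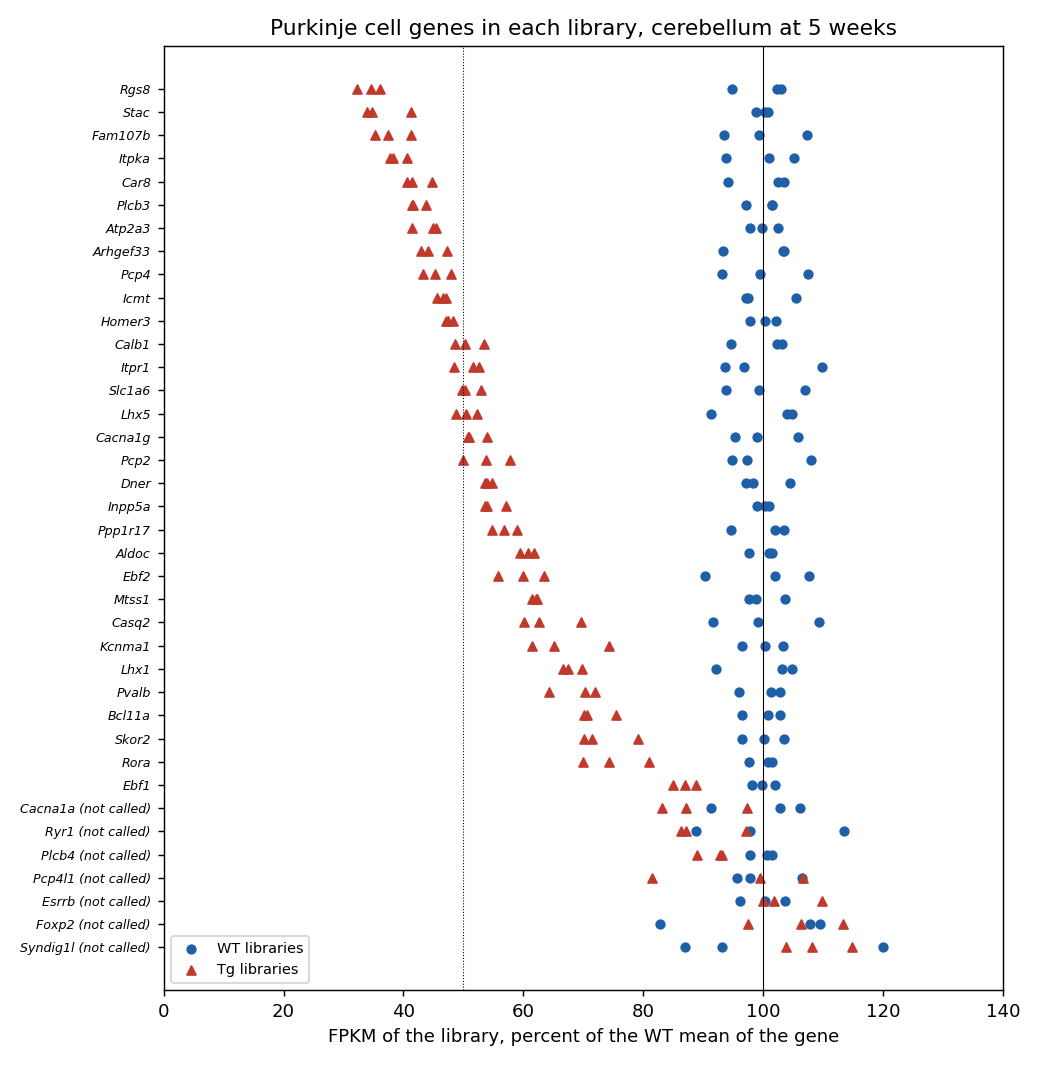
FPKM of each library as a percent of the gene's WT mean for 38 of the 42 Purkinje cell list genes, ordered by fold change, with WT libraries as blue circles and Tg libraries as red triangles, the solid line at 100% and the dotted line at 50%. The triangles of the 31 called genes shown lie left of all circles, starting with Rgs8 at a mean of 34.3%, and those of the 7 genes marked as not called lie closer to 100%.

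Calbindin (Calb1, chr4:15881264-15908064), the cytosolic calcium buffer by which Purkinje cells are commonly stained, read 385, 382 and 353 FPKM in WT and 199, 181 and 187 FPKM in Tg libraries. The difference was -0.98 with a 95% interval of -1.09 to -0.87. The glutamate transporter Slc1a6 read 77.1, 87.9 and 81.6 FPKM in WT and 43.5, 41.3 and 40.8 FPKM in Tg libraries, again with a wide gap between the groups. Pcp4, a calmodulin-binding peptide, was lower by -1.14. Not every list member moved. Cacna1a, the pore of the P/Q calcium channel, differed by -0.17 (limma adjusted p = 0.334), Ryr1 by -0.14 and Pcp4l1 by -0.07. Foxp2, a transcription factor of Purkinje cells, differed by 0.09 with an interval of -0.17 to 0.34, and Syndig1l by 0.13 with an interval of -0.11 to 0.38. Esrrb differed by 0.05. Both intervals hold small changes in either direction, and neither reaches the decrease seen for Calb1.

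Genes of metabotropic glutamate and IP3 calcium signalling were mostly lower. The list shares 15 genes with the Purkinje cell list. Of its 31 genes 30 were tested, 21 were called lower (70%) and 0 higher, beside 3.73% and 0.428% over all genes, with a list median of -0.45. In the limma fit 23 had an unadjusted p below 0.05 with a lower level and 1 with a higher level, beside 9.82% and 4.73% over all genes. Gnaq and Gna11, the G protein alpha subunits that couple such receptors to phospholipase C, differed by -0.23 and 0.02, and only Gnaq was called. Plcb3, a phospholipase C beta isoform, fell from 18.5, 19.3 and 19.3 FPKM to 8.33, 7.93 and 7.87 FPKM, whereas Plcb4, the isoform of the other Purkinje cell stripes, differed by -0.13 and was not called (adjusted p = 0.102). Plcb3 lies against Bad in the deposited loci.

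At the calcium store, Itpr1, the IP3 receptor of Purkinje cells, read 371, 421 and 359 FPKM in WT and 201, 186 and 198 FPKM in Tg libraries, a difference of -0.97. Car8, a carbonic anhydrase-like protein that binds this receptor and lowers its affinity for IP3, fell from 230, 232 and 211 FPKM to 100, 91.3 and 92.9 FPKM. Enzymes that remove IP3 were lower as well. Itpka, which phosphorylates IP3, read 40.0, 41.7 and 37.2 FPKM in WT and 16.1, 14.9 and 15.1 FPKM in Tg, a difference of -1.36, and Inpp5a, which dephosphorylates it, differed by -0.87. The calcium pumps of the endoplasmic reticulum were lower by -1.19 for Atp2a3 and -0.49 for Atp2a2, and the plasma membrane pump Atp2b2 by -0.41. All 7 of these genes were called lower in limma.

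Among scaffolds and enzymes of the pathway, Homer3, which ties metabotropic receptors to IP3 receptors, fell from 104, 108 and 106 FPKM to 51.2, 50.3 and 49.9 FPKM. Homer3 shares a deposited locus with Ddx49, which differed by -1.11 beside -1.07 for Homer3, so the 2 readings may not be separate. Its relatives Homer1 and Homer2 were not called. Dagla, the enzyme that makes the endocannabinoid 2-AG, was lower by -1.02 and Shank2, a postsynaptic scaffold, by -0.78. Members that were not called included the kinase Prkca (0.07), Nos1 (-0.04) and the guanylyl cyclase subunit Gucy1a3 (0.12).

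Markers of both kinds of Purkinje cell stripe were lower. Zebrin II (Aldoc), the glycolytic enzyme that defines the positive stripes, read 958, 996 and 991 FPKM in WT and 597, 583 and 607 FPKM in Tg libraries, 60.7% of the WT mean. Of 6 zebrin II-positive markers 5 were called lower, with a median of -0.84, and of 4 zebrin II-negative markers 3 were called lower, with a median of -0.54, both beside 3.73% over all genes. Sphk1 was the uncalled positive marker, at -0.20 (limma adjusted p = 0.416), and Plcb4 the uncalled negative one. Ebf2, a transcription factor of the negative stripes, was lower by -0.72. Kctd12 and Gabbr2, GABA-B receptor partners of the positive stripes, were lower by -0.96 and -0.62. The difference between the 2 lists was not tested.

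RORalpha and 4 of 5 genes listed as its targets were called lower. Rora read 54.5, 56.6 and 56.2 FPKM in WT and 41.4, 39.0 and 45.2 FPKM in Tg libraries, a difference of -0.42 (limma adjusted p = 0.00189). Of the 6 genes on the RORalpha list, which holds Rora itself, 5 were called lower, beside 3.73% over all genes, with a median of -0.93, and the list shares Rora, Slc1a6, Pcp2, Pcp4 and Itpr1 with the Purkinje cell list. Among the 12 tested genes of the ATXN1 partner list, which holds Atxn1 itself, Rora was the 1 that was called. Cic differed by -0.02 and the splicing factor Rbm17 by -0.03.

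Several genes that Capicua represses were lower. Of 14 genes on that list 6 were called lower, beside 3.73% over all genes, and 0 higher, with a median of -0.20. Dusp6, a phosphatase of ERK kinases, read 6.84, 7.72 and 6.74 FPKM in WT and 5.35, 5.64 and 5.51 FPKM in Tg libraries, a difference of -0.36. Dusp4, a related phosphatase, was lower by -0.58, Spry4, an inhibitor of receptor tyrosine kinase signals, by -0.36 and the ETS transcription factor Etv4 by -0.32. Spred1 and Etv1 were lower by -0.21 and -0.19. The calls of Dusp4, Spry4, Etv4 and Etv1 were each lost on leaving out 4 or 5 of the 6 libraries in turn, and that of Dusp6 without Tg replicate 1.

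Among ion channels, 9 of 68 tested potassium channel subunits were called lower and 1 higher, where 3.73% and 0.428% of all genes were called in these directions. Kcng4, a modifier subunit, fell from 44.7, 42.4 and 41.7 FPKM to 26.0, 27.2 and 28.2 FPKM. The auxiliary subunits Kcnab1, Kcnip1 and Kcnmb4 were lower by -0.75, -0.66 and -0.63, and Kcnq3, an M-current channel named here after its value was seen, was the 1 that was higher, by 0.34. Of 22 calcium channel subunits 3 were lower, Cacna1g, a T-type channel of Purkinje cells, by -0.94, Cacnb2 by -0.64 and Cacna2d2 by -0.46. Of 8 sodium channel subunits tested 3 were lower, among them Scn4b by -0.30 and Scn2b by -0.13, and these calls were lost in 5 and 6 of the 6 fits that left out a library.

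Among receptors, 5 of 25 glutamate receptor genes were called lower, which for this and the next counts stands beside 3.73% over all genes. The kainate receptor subunits Grik1 and Grik4 were lower by -0.76 and -0.46. Of 15 GABA receptor genes 3 were lower, among them the 2 subunits of the GABA-B receptor, Gabbr1 (-0.72) and Gabbr2 (-0.62). Of 27 organisers of climbing and parallel fibre synapses 5 were lower, among them Clstn2 (-0.38), Sema7a (-0.38) and Nlgn2 (-0.23).

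In dendrites, 8 of 29 actin signalling genes were called lower, and the counts that follow likewise stand beside 3.73% of all genes called lower and 0.428% called higher. Mtss1, a membrane-bending protein, was lower by -0.69 and Baiap2 by -0.54. Of 16 RGS genes 3 were lower and 1 higher. The higher gene, Rgs20, lost its call in 6 of 6 fits that left out a library. Rgs10, among the lower genes, lost its call in 5 of 6. Arhgef33, a guanine nucleotide exchange factor of the Purkinje cell list whose entry overlaps Gm10190, was lower by -1.15. Among 26 phosphodiesterases and adenylyl cyclases 2 were lower and 1 higher. The phosphodiesterases Pde9a and Pde5a, which degrade cyclic GMP, were lower by -0.85 and -0.84 and Pde1c was higher by 0.50, a call lost in 5 of 6 fits that left out a library. Cck, the cholecystokinin precursor and 1 of 2 called neuropeptide genes of 22, read 55.2, 50.5 and 53.1 FPKM in WT and 22.7, 27.1 and 28.3 FPKM in Tg libraries. Of 29 protocadherins and cadherins 1 was lower, Pcdh20, by -0.42, a call lost in 6 of 6 fits that left out a library. Of 73 ribosomal protein genes 1 was called lower (median -0.03). Of 83 respiratory chain genes 4 were called lower, again beside 3.73% over all genes, with a median of -0.08. In that list 78 genes had negative fold changes, 24 had a lower level at an unadjusted p below 0.05 in limma (9.82% over all genes) and 28 had every Tg library below every WT library (12.5% over all genes). The 4 included Cox6b2 (-1.41) and Cox4i2 (-0.76), which are isoforms of limited tissue range, and the call of Cox6b2 was lost without WT replicate 1.

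Most of the lower genes were outside the lists. Of the 497 lower genes 95 were in at least 1 list and 402 in none, and 35 (7.04%) were in the Purkinje cell list. Of the 57 higher genes 11 were in a list.

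Markers of other neurons showed few calls, and their counts stand beside 3.73% of all genes called lower. Among 17 granule cell markers 1 was lower (median 0.01), and among 10 markers of molecular layer interneurons 1 was lower, Prkcd, a protein kinase C, by -0.25 (median 0.04). Among 6 Golgi and unipolar brush cell markers 1 was lower. In the deep cerebellar nuclei, the targets of Purkinje cells, 0 of 7 tested markers were called in limma and 0 had an unadjusted p below 0.05. The neurofilament Nefl, the most abundant of them, differed by 0.07. All 7 fold changes of these markers were positive, with a median of 0.10. Of 20 markers of neighbouring brain regions 7 passed the level filter, and the 1 call was Th, tyrosine hydroxylase, at -0.66, a call lost in 3 of 6 fits that left out a library. These 7 share genes with the deep nuclei list and with the choroid plexus list described below, so they are not all particular to neighbouring regions. All 17 granule cell markers and all 42 Purkinje cell markers passed the level filter, as the cerebellar label implies, and 13 of the 20 markers of neighbouring regions did not.

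**Figure D3:**
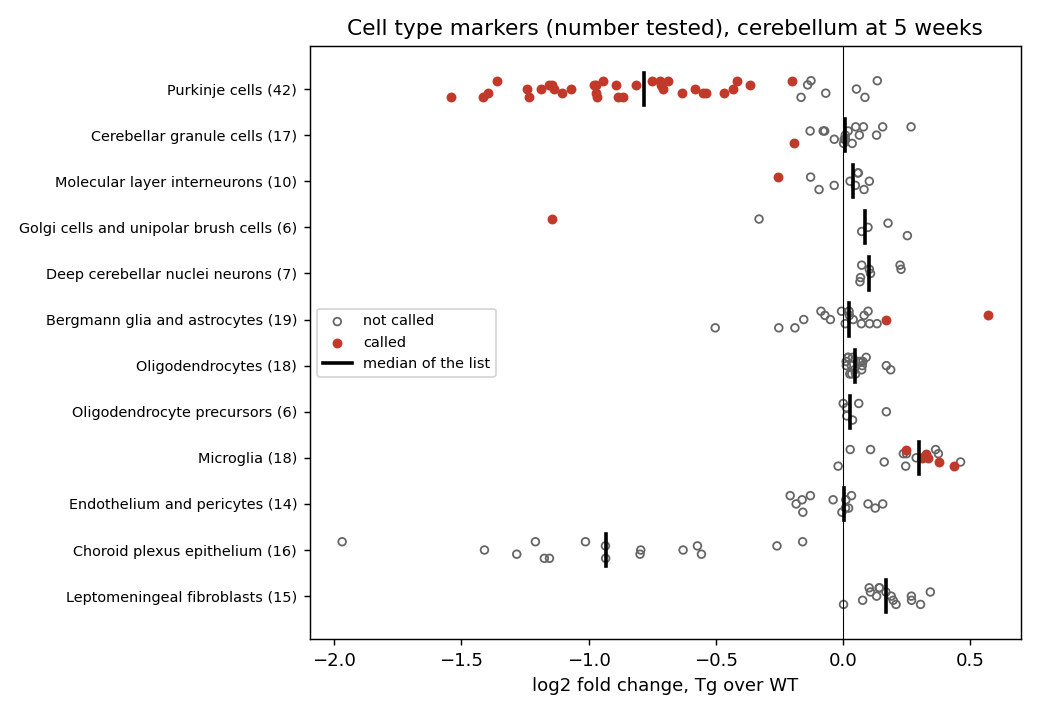
Log2 fold changes, Tg over WT, of the tested markers of 12 cell type lists, with called genes as filled red points, uncalled genes as open points, the list median as a black bar and the number tested in brackets. The Purkinje cell bar lies at -0.78 and the microglia bar at 0.30, while the choroid plexus bar lies at -0.93 with 0 of 16 markers called.

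Oligodendrocyte markers gave no calls, 0 of 18 in limma, with 2 higher at an unadjusted p below 0.05, and Mbp was at 0.08. Of 6 precursor markers 0 were called and 1 was higher at an unadjusted p below 0.05. For leptomeningeal fibroblasts 0 of 15 were called, 3 were higher at such a p, and 3 had every Tg library above the WT libraries. All 18, 6 and 15 fold changes of these 3 lists were positive, with medians of 0.05, 0.03 and 0.17. For endothelium and pericytes 0 of 14 were called, and 1 was higher and 2 lower at such a p. Of these 14, 7 had positive and 7 negative fold changes. Over all genes 4.73% were higher and 9.82% lower at that p, and 7.65% were separated above WT. Of the 2 tested erythrocyte genes 0 were called and 0 had such a p. Choroid plexus markers were low in 1 Tg library. Ttr, the transthyretin gene of the choroid plexus, read 1056, 1504 and 711 FPKM in WT and 1299, 1107 and 13.0 FPKM in Tg libraries, and the list summed to 1018 to 2030 FPKM in WT libraries, 1796 and 1529 FPKM in Tg replicates 1 and 2 and 122 FPKM in Tg replicate 3. None of the 16 was called or had an unadjusted p below 0.05 in limma, and without Tg replicate 3 the fold change of Ttr was 0.20. Leaving out that library left 34 of the 35 Purkinje cell calls.

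The called higher genes were fewer and changed less. Hrk, which encodes a BH3-only activator of apoptosis (chr5:118164648-118189478), read 2.43, 2.23 and 2.53 FPKM in WT and 4.18, 4.26 and 5.95 FPKM in Tg libraries, a difference of 0.95 ± 0.13 (SE, limma adjusted p = 0.00331). Tg replicate 3 was the highest library, and without it Hrk still differed by 0.79 and remained called. Pappa, a metalloprotease that cleaves IGF-binding proteins, rose from 1.97, 1.83 and 1.70 FPKM to 3.77, 3.67 and 3.12 FPKM. Galr1, a galanin receptor, read 1.67, 1.85 and 2.36 FPKM in WT and 3.48, 3.35 and 4.69 FPKM in Tg, and its call was lost without WT replicate 2. Further named increases were Pf4, a chemokine (0.92), Coch, an extracellular matrix protein (0.70), the transcription factor Creb5 (0.61), Mxra7 (0.51) and Fcgr3, an IgG receptor (0.48), whose call was lost in 5 of 6 fits that left out a library.

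Gfap was the clearest glial increase. This intermediate filament of astrocytes (chr11:102887336-102900912) read 62.8, 59.6 and 61.3 FPKM in WT and 91.2, 95.8 and 86.1 FPKM in Tg libraries, 149% of the WT mean, a difference of 0.57 ± 0.04 (SE, limma adjusted p = 9.31e-05). Of 19 Bergmann glia and astrocyte markers 2 were called higher and 0 lower, beside 0.428% and 3.73% over all genes. The list median was 0.02 and the range -0.50 to 0.57. At an unadjusted p below 0.05 in limma 3 were higher and 4 lower, and in 3 every Tg library lay below the WT libraries. These shares over all genes were 4.73%, 9.82% and 12.5%. The other called marker was Gja1, the connexin 43 gap junction protein, at 127.4, 121.5 and 122.5 FPKM in WT and 138.6, 138.4 and 140.3 FPKM in Tg, a difference of 0.17 whose call was lost in 5 of 6 fits that left out a library. Padi2, a protein-citrullinating enzyme of glia, rose from 10.7, 10.5 and 10.2 FPKM to 13.6, 15.2 and 14.1 FPKM.

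A number of microglial genes were higher. Of 18 markers 6 were called higher (33.3%), beside 0.428% over all genes, and 0 lower. At an unadjusted p below 0.05 in limma 14 had a higher level, beside 4.73% over all genes. The median was 0.30 and the summed level 137, 137 and 125 FPKM in WT and 153, 153 and 152 FPKM in Tg libraries. Complement C1q subunits were among them: C1qc rose from 7.74, 7.64 and 7.43 FPKM to 10.8, 9.75 and 9.25 FPKM, and C1qa from 13.5, 12.8 and 11.8 FPKM to 16.3, 16.2 and 15.2 FPKM. Cd68, a lysosomal protein of phagocytes, rose from 2.05, 1.79 and 2.01 FPKM to 2.70, 2.80 and 2.51 FPKM, and C1qb by 0.33. Tyrobp and Csf1r, which complete the 6 and were named after their values were seen, were higher by 0.31 and 0.25. The number called depended on single libraries, with 3 without WT replicate 2, 3 without Tg replicate 1 and 2 without Tg replicate 2. C4b, another complement gene outside this list, rose from 1.42, 1.50 and 1.32 FPKM to 2.21, 2.11 and 2.36 FPKM.

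**Figure D4:**
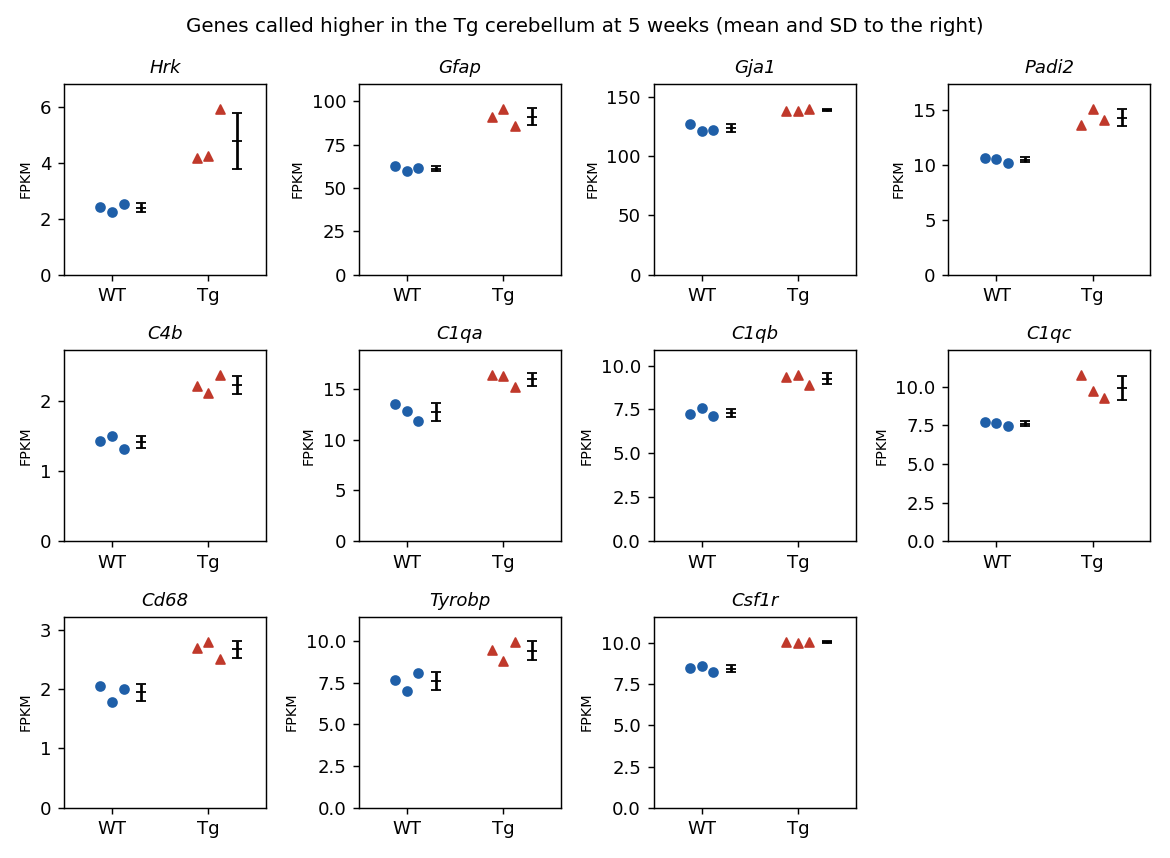
FPKM in the 3 WT (blue circles) and 3 Tg (red triangles) libraries for 11 genes called higher in Tg cerebellum, each panel starting at 0, with the mean and SD of each group in black at its right. All 3 triangles lie above all 3 circles in every panel. The gap is narrow in Gja1, from 127 FPKM in the highest WT to 138 FPKM in the lowest Tg library.

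Programmes that change with stress, interferon or activity gave no calls. In limma 0 of 22 tested interferon-stimulated genes were called, with 5 at an unadjusted p below 0.05, all higher and all with every Tg library above the WT libraries. Over all genes 4.73% were higher at that p and 7.65% were separated in this way. In either direction, beside 14.6% over all genes, the counts were 0 of 14 with 3 for immediate early genes, 0 of 15 with 4 for circadian clock genes, and 0 of 18 with 1 for chaperones and ubiquitin ligases. B2m, Dusp1, Tef and Hspa8, the most abundant member of each, differed by 0.09, 0.07, -0.03 and -0.04.

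To ask how the 5 week profile related to the later age, the same genes were read in Tg and WT cerebella of 12 weeks, which are other animals in a separately normalized table. There limma called 1021 of 13465 genes (7.58%), 309 higher (2.29%) and 712 lower (5.29%). Of the 497 genes lower at 5 weeks, 486 were tested at 12 weeks, 476 had the same sign, beside 54.9% of all genes with a negative sign there, and 373 were called lower, which is 75.1% of the 5 week list and 52.4% of the 12 week list. Their median went from -0.42 to -0.55, and 372 lay farther from 0. Of the 57 higher genes 56 were tested, 55 had the same sign and 28 were called higher (49.1% and 9.06% of the lists), with a median of 0.33 at 5 weeks and 0.50 at 12 weeks. In limma 0 genes were called in opposite directions at the 2 ages.

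**Figure D5:**
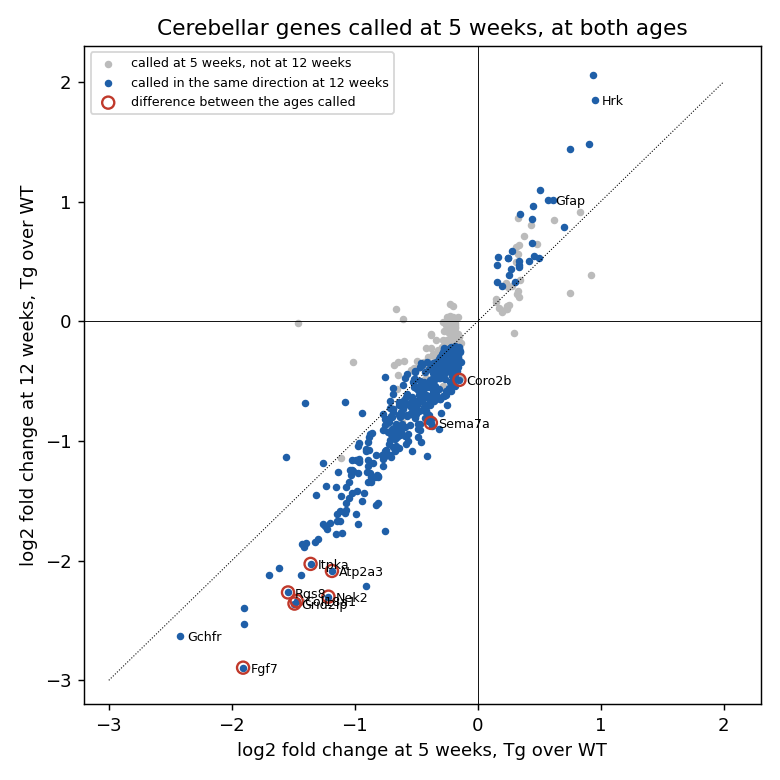
Log2 fold changes, Tg over WT, at 12 weeks against 5 weeks for the 542 genes called at 5 weeks and tested at both ages, blue where called in the same direction at 12 weeks and ringed in red where the difference between ages was called. Most points lie in the lower left of the plot, below the dotted line of equal change for the larger decreases, with Fgf7 at -1.91 and -2.89.

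The difference between ages was itself tested by an interaction term over the 12 libraries. It was called for 11 of 12898 genes (0.0853%), 10 of them more negative at 12 weeks (0.0775%) and 1, Crtac1, more positive (0.00775%). Without WT replicate 3 of the 12 week table the count was 181, and without any other single library it was 3 to 9. Fgf7 went from -1.91 to -2.89, Grid2ip from -1.49 to -2.36, Col18a1 from -1.47 to -2.34, Atp2a3 from -1.19 to -2.09 and Nek2, a mitotic kinase, from -1.21 to -2.30. Rgs8 (limma adjusted p = 0.031), Itpka and Sema7a differed between the ages too. Gchfr stood at -2.63 at 12 weeks and its difference from 5 weeks was not called. Among the higher genes, Hrk was at 1.85, Pappa at 1.48 and Gfap at 1.02 at 12 weeks, and none of these 3 differences between ages passed the limma threshold, the smallest adjusted p being that of Hrk, 0.0762. In the Purkinje cell list 36 of 40 genes tested at 12 weeks were lower, with a median of -1.12, and 33 were lower at both ages.

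KI cerebellum of 5 weeks, which carries the expanded repeat in the mouse gene on another strain, gave 1 called gene of 13341 (0.0075%), with 496 at an unadjusted p below 0.05 in limma (3.72%). The called gene was Igfbp5, an IGF-binding protein, at -0.99 in KI and -0.46 in Tg cerebellum. Of the Purkinje cell list 0 of 41 genes were called, and 37 had negative fold changes with a median of -0.20. Of the 497 genes lower in Tg, 486 were tested in KI and 411 had the same sign, beside 50.6% of all genes with a negative sign there. At an unadjusted p below 0.05 in limma 119 of them were lower in KI, beside 3.72% of all genes in either direction. Of the 57 higher genes 32 had the same sign in KI, beside 49.4% of all genes. The difference between models was called for 110 of 12739 genes (0.863%), with the KI effect above the Tg effect for 104 (0.816%) and below it for 6 (0.0471%), and 21 of 41 Purkinje cell genes were among the 104. Without FVB/NJ WT replicate 1 the count was 70 and without Tg replicate 2 it was 72. Fgf7 differed by -0.04 in KI and -1.91 in Tg, Gchfr by -0.92 and -2.42, Gng13 by -0.51 and -1.90, Trabd2b by -0.48 and -1.90 and Tspan11 by -0.35 and -1.70. Gfap was at -0.11 in KI and 0.57 in Tg. Strain and model cannot be told apart in this contrast.

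Tg inferior olive of 5 weeks, a tissue outside the Purkinje cells in which the transgene is expressed, gave 0 called genes of 13708 in limma, with 902 at an unadjusted p below 0.05 (6.58%). The Purkinje cell list had 0 calls of 40 tested genes and a median of 0.08, and the microglia list a median of 0.02. The tissues differed in their genotype effect for 319 of 12697 genes (2.51%), 296 with the olive effect above the cerebellar one (2.33%) and 23 below (0.181%), and 25 of 40 Purkinje cell genes were in the first group. Gchfr was at -0.06 in olive and -2.42 in cerebellum, and Gng13 at 0.09 and -1.90. On the other side, Hrk was at 0.01 and 0.95 and Coch at -0.04 and 0.70. Of the 468 lower cerebellar genes tested in the olive, 238 had the same sign, beside 51.9% of all genes with that sign there.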

How the data were processed

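RNA-sequencing was done on poly(A)-selected RNA from dissected cerebella and inferior olives of male mice, as paired-end 75 bp reads, with 3 libraries per genotype, tissue and age. The authors aligned reads to mm10 with TopHat2 2.1.0, and the deposited FPKM values were made with Cufflinks 2.2.1 and Cuffnorm; FPKM divides by transcript length and depth, so 1 very abundant class of small RNA lowers all other values unless the scaling corrects for it, and values of loci that share reads are estimates. Strandedness of counting was not given in the sources used here. The deposited tables also hold the authors' Cuffdiff fold changes, p-values and q-values, which were not used.

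Here, the most abundant entry of each symbol was kept (534 others left out), genes averaging 0.5 FPKM or more in each genotype were retained, 0.1 was added before log2, and limma 3.58.1 in R 4.3.3 was fitted to the 6 libraries with a trended prior. Intervals are 95%. Differences from the 12 week, KI and olive contrasts were interaction terms in fits of 12 libraries, within separately normalized tables. Replicate libraries measure the spread between animals as labelled. Named genes were Atxn1, Pcp2, the 12 largest called increases and decreases averaging 1 FPKM or more in each genotype, without overlap (symbols starting in Mir, Snor or Gm or ending in Rik were counted only), up to 4 called members of each list, or its most abundant member, and up to 5 genes of each sign per interaction. All members of the zebrin, metabotropic glutamate and ATXN1 partner lists could also be named. Outside these rules, Cacna1a, Pcp4l1, Foxp2, Syndig1l, Esrrb, Spred1, Ddx49, Kcnq3, Tyrobp and Csf1r were named with their values known. Genes and lists were chosen with earlier results of these data known, so no p-value is given for a list. The fit was tested on simulated data. Alternatives were pseudocounts of 0.01 and 1, other level filters, median centring, quantile normalization, no trend, a replicate block, leaving out each library, and, added after seeing the data, every entry of a repeated symbol. Positions are from GENCODE M21 on GRCm38. The depth in reads is unknown from FPKM, so no counting interval is given. Some items are not reported here.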

Additional observations from a re-analysis of the deposited data

Results flagged for a closer look

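The genotype effect was tested for differences between ages, models and tissues, and the values below are the 2 log2 fold changes subtracted, the named contrast minus the 5 week Tg cerebellum. Between 12 and 5 weeks 11 genes differed by limma's interaction test. Fgf7 differed by -0.99, Grid2ip by -0.87, Col18a1 by -0.86, Atp2a3 by -0.90 and Nek2 by -1.09. Crtac1, at -0.06 at 5 weeks and 0.54 at 12 weeks, differed by 0.60.

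Between the KI and Tg cerebella of 5 weeks 110 genes differed. Fgf7 differed by 1.86, Gchfr by 1.50, Trabd2b by 1.42, Gng13 by 1.39 and Tspan11 by 1.35, all with smaller decreases in KI. Gfap differed by -0.68, Padi2 by -0.66 and Igfbp5 by -0.53. Grm4, a glutamate receptor of parallel fibre terminals, differed by -0.66 with -0.63 in KI, and Ccdc63 by -0.85 with -0.88 in KI.

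Between the Tg inferior olive and the Tg cerebellum 319 genes differed. Gchfr differed by 2.36, Gng13 by 1.99, Mdfi by 1.84, Stk17b by 1.83 and Col18a1 by 1.78. Hrk differed by -0.95, Coch by -0.74, Mxra7 by -0.53 and Gprin3 by -0.52. Whether olives and cerebella came from the same mice was not given in the labels.

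Entries without a gene symbol were outside the comparisons. Of 657 such entries that passed the level filter, 15 were called (2.28%), 2 higher and 13 lower.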

How the results depend on the processing

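No called gene was called in the opposite direction under an alternative, and 0 of the 98 called named genes changed sign. The count of called genes, 554, was 447 to 586 in the fits of all 6 libraries and 370 to 482 on leaving out a library. Higher genes numbered 57, 89 after quantile normalization and 27 to 60 on leaving out a library. Microglial calls spanned 2 to 7 and those of the KI difference 70 to 150 on leaving out a library. The 11 genes that differed between ages became 17 after quantile normalization, 3 without the trend and 3 to 181 on leaving out a library. The cause was not tested. Of 98 called named genes 22 lost their call under at least 1 alternative.

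Replicate numbers did not pair the libraries (correlations of same-numbered deviations -0.136, -0.168 and 0.237). With a replicate block 586 genes were called, 504 of them among the 554. The best-correlated Tg partner of WT replicates 1, 2 and 3 was Tg replicate 2, 1 and 3.

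Some uncalled genes changed sign, most of them near 0 and Ttr, at -1.97, on leaving out Tg replicate 3. After quantile normalization Tef was at 0.027, Hspa8 0.074, Gucy1b3 0.033, Cic 0.020 and Rbm17 0.012, and after median centring Gucy1b3 was at 0.0043. The ranges on leaving out a library were Nefl -0.00696 to 0.13, Sox10 -0.045 to 0.10, Ttr -3.11 to 0.20, Igf2 -0.10 to 0.29, Hbb-bt -0.22 to 0.14, Dusp1 -0.10 to 0.26, Tef -0.085 to 0.030 and Hspa8 -0.072 to 0.011. Further ranges were Gna11 -0.0023 to 0.029, Gucy1b3 -0.019 to 0.011, Homer2 -0.026 to 0.057, Nos1 -0.12 to 0.022, Cic -0.060 to 0.0065, Ncor1 -0.0091 to 0.024, Rbm17 -0.052 to 0.0023 and Ccdc63 -0.13 to 0.077. Depth in reads is unknown, so the precision of low levels rests on 3 libraries per group.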
